A study of Mus musculus with 9 samples.

Results

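The loci described here are those of 6 noncoding RNA genes, Malat1, Neat1, Meg3, H19, Gas5 and Snhg1, in the chromatin of mouse oviductal muscle cells. The genes were chosen by name with earlier results of these data known: Malat1 and Neat1 had already been seen inside a long stretch of pooled H3K27ac peaks, so their values are given as a description with no test. Every deposited peak that touched a gene body or the 25 kb on either side of it (the window of the gene) was collected, with gene positions from GENCODE on the mouse GRCm38 assembly. In the 8 peak lists there were 190 such peaks of 848955 in all. Malat1 and Neat1 lie next to each other and their windows share 27965 bp, so peaks there belong to both, and the windows counted separately held 58 entries for Malat1, 72 for Neat1, 52 for Snhg1, 34 for Gas5, 7 for Meg3 and 4 for H19. Of these 227 entries, 38 were promoter peaks (within 1 kb of an annotated transcript start), 29 were intragenic and 160 were flanking. All 29 intragenic entries were at Neat1, and a peak inside a gene but near any of its starts counted as a promoter peak.

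The cells were primary oviductal muscle cells from wild-type (WT) mice 8 to 12 weeks old on day 2 of pregnancy, after mating with a stud male. Oviducts were digested, passed through a filter and plated for hours before harvest, with no sort, so the cells of a library can be of more than one type. ChIC-Seq, in which an antibody tethers protein A-MNase to chromatin so that fragments around the target are released, was run on 50000 cells a library with antibodies to H3K27ac (3 libraries), to H3K4me1 (3 libraries) and with IgG as the control (3 libraries). Nothing in the labels says whether same-mark libraries came from separate animals, so p-values measure only the spread between these libraries. Each list held 93684 to 152889 peaks in the H3K27ac replicates and 100804 to 128684 in the H3K4me1 replicates, from 40551842 to 42040809 and 41891318 to 78891920 fragments. The 3 IgG libraries were much shallower, at 3110985 to 3713369 fragments, and the smallest pileup of any listed peak was 4.03 to 4.94 times the genome mean, so weaker enrichment than that was not detectable. Promoter peaks in all 3 replicates were found for H3K27ac at 5 of 8 smooth muscle markers (0 of 3 replicates at Myh11, the smooth muscle myosin heavy chain), 0 of 8 epithelial, 2 of 8 blood (Ptprc and Cd68) and 1 of 4 endothelial markers (Tek), and for H3K4me1 at 6, 1, 0 and 1 of the same lists. The shares over all annotated genes were 24.4% for H3K27ac and 18.2% for H3K4me1, so the blood and endothelial counts for H3K27ac were near that background. The part of other cell types in the results below was not tested.

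H3K27ac marks active promoters and enhancers, while H3K4me1 is typical of enhancers and of the shoulders of active promoters and is low at the start site itself, where H3K4me3 replaces it. Malat1 and Neat1 are abundant RNAs kept in the nucleus, Malat1 in nuclear speckles and Neat1 as the scaffold of paraspeckles. Gas5 and Snhg1 are host genes whose introns carry small nucleolar RNAs (snoRNAs), the guides for modification of ribosomal RNA. Meg3 and H19 are imprinted genes transcribed from the maternal chromosome, in clusters with the paternally expressed Dlk1 and Igf2, and H19 is also the precursor of the microRNA miR-675. The peak lists do not separate the parental alleles.

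The genes lie as follows in GRCm38. Malat1 (ENSMUSG00000092341.3) is on chromosome 19 from 5795690 to 5802672, minus strand, and Neat1 (ENSMUSG00000092274.3) is 22035 bp upstream of it on the same strand, from 5824708 to 5845478. Snhg1 (ENSMUSG00000108414.1) is also on chromosome 19, from 8723475 to 8726443, plus strand. Gas5 (ENSMUSG00000053332.13) is on chromosome 1 from 161034422 to 161038539, plus strand. Meg3 (ENSMUSG00000021268.17) is on chromosome 12 from 109541001 to 109571726, plus strand, and H19 (ENSMUSG00000000031.16) is on chromosome 7 from 142575529 to 142578143, minus strand. Neat1 (20771 bp) and Meg3 (30726 bp) are the long genes of the set, and H19 (2615 bp) and Snhg1 (2969 bp) the short ones.

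Promoter sequences (250 bases before a RefSeq start to 50 after it, GRCm38.p6) were found for Malat1, Meg3, Gas5 and Snhg1, and not for Neat1 and H19. The 4 below are shown because H3K27ac covered 3 of them whole in all 3 replicates, while H3K4me1 replicates covered no base of any. Of 2 Gas5 promoters in the table, that of the downstream start is shown, which no H3K4me1 list covered; the other was covered whole by H3K27ac and 42% by the pooled H3K4me1 list. Capitals mark matches, on either strand, to the GC box GGGCGG, the CCAAT box CCAAT, the TATA box TATAAA, the cAMP response element TGACGTCA, the AP-1 site TGANTCA, the E box CACGTG or the CArG box of smooth muscle genes.
Malat1 (chr19:5802623-5802922, minus strand): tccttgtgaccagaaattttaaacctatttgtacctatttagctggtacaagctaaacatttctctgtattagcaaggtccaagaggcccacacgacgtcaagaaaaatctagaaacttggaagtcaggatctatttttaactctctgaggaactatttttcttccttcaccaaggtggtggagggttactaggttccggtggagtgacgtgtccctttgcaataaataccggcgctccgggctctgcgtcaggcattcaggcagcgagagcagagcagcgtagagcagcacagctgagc
Gas5 (chr1:161034916-161035215, plus strand): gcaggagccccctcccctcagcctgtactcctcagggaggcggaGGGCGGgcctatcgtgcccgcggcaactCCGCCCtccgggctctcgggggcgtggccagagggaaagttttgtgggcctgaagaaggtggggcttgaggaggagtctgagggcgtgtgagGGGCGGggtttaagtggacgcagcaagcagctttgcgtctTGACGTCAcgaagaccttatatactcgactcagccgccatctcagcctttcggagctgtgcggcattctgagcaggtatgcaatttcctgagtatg
Snhg1 (chr19:8723237-8723536, plus strand): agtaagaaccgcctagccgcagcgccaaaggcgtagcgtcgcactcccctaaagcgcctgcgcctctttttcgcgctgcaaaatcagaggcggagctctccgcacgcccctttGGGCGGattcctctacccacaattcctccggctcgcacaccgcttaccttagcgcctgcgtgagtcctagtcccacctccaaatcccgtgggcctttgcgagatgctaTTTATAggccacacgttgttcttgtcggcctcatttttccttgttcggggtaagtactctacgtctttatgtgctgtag
Meg3 (chr12:109540746-109541045, plus strand): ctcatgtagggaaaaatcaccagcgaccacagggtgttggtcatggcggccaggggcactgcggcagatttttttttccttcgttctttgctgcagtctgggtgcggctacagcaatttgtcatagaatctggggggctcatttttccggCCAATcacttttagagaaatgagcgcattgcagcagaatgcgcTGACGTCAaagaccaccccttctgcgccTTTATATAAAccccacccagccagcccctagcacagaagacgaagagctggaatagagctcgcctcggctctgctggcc

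The Malat1 promoter held none of the 7 motifs, at 47.0% G and C and 10 CpG dinucleotides (57.6th percentile of 32851 RefSeq promoters by CpG count). The Gas5 promoter shown held 3 GC boxes and 1 cAMP response element at 62% G and C, and the other Gas5 start, at 161034351 to 161034650, lay in the 91.9th percentile by CpG count, with 33 CpG and 5 GC boxes. Snhg1 held 1 GC box and 1 TATA box with 25 CpG (82.4th percentile). Meg3 held a CCAAT box, 1 cAMP response element and 2 overlapping TATA matches next to its start, with 13 CpG. Of all promoters in the table, 35.7% held a GC box, 37.4% a CCAAT box, 13.6% a TATA box, 1.79% the cAMP response element, 7.81% the AP-1 site, 7.15% the E box and 1.63% the CArG box. The second Meg3 start, at 109545148 to 109545447, held 1 CArG box and was covered by no peak of any list. A match gives letters only and says nothing of whether a factor was bound.

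A promoter peak could lie near any annotated start, and the 6 genes had 4 to 20 starts each. The shares of other genes given here were not matched for the number of starts. Promoter peaks of H3K27ac were present in all 3 replicates at 4 of the 6 genes, Malat1, Neat1, Gas5 and Snhg1, against 24.4% of all 55413 annotated genes and 18.2% of 10155 lncRNA genes. Promoter peaks of H3K4me1 were present in all 3 replicates at 1 gene, Gas5, against 18.2% of all genes and 16.2% of lncRNA genes. This count was 0 when only peaks with a −log10 p of at least 1.3 were kept or when 50% of the promoter had to be covered, 2 without H3K4me1 replicate 3 (Gas5 and Snhg1) and 3 when promoters were widened to 3 kb (Malat1, Neat1 and Gas5). H19 was the single gene of the 6 with no promoter peak in any of the 6 replicate lists, a state it shared with 53.0% of all genes and 52.5% of lncRNA genes. Meg3 lay between, with promoter peaks in 2 H3K27ac replicates and 1 H3K4me1 replicate. The share of each window covered by peaks gave the same 4 genes: it was greater in every H3K27ac replicate than in every H3K4me1 replicate at Malat1, Neat1, Gas5 and Snhg1, as at 12.0% of all genes. Over the gene body this held for the same 4 genes and for 6.23% of all genes, and over the promoters for the same 4 and for 12.3% of all genes. The body and promoter measures share bases, since promoters were the union over all annotated starts. Gas5 had 20 starts, with 5360 bp of promoter for a gene of 4118 bp. Snhg1 had 17 starts, with 4026 bp of promoter for a gene of 2969 bp.

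**Figure D1:**
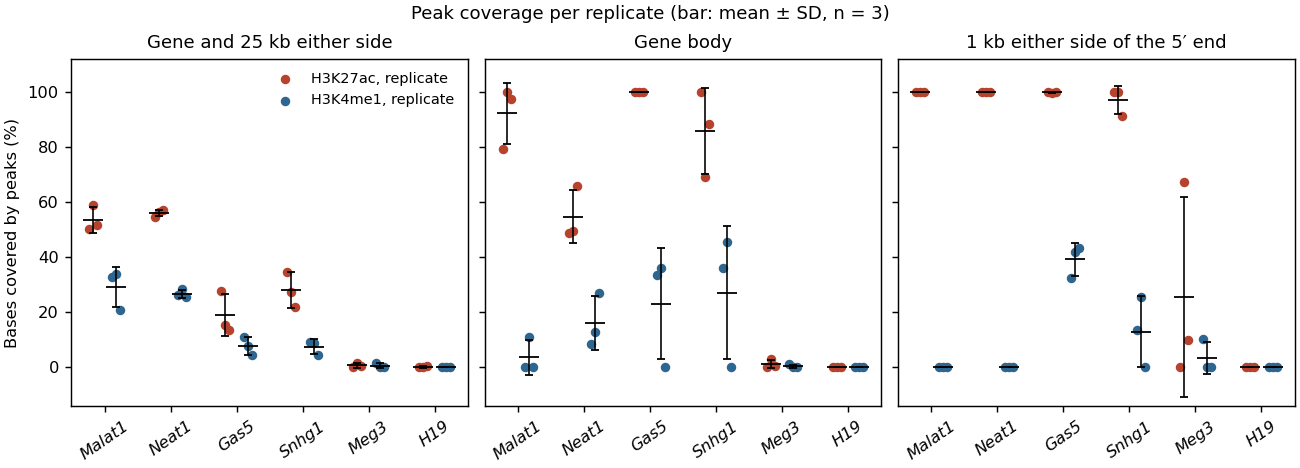
Percent of bases covered by peaks (vertical axis) for each gene (horizontal axis) in the 3 H3K27ac and 3 H3K4me1 replicates, over the window, the gene body and 1 kb either side of the 5′ end; points are replicates and bars the mean ± SD (n = 3), drawn symmetric even where that passes below 0. At Malat1 and Neat1 the 5′ end was covered 100% by H3K27ac and 0% by H3K4me1 in every replicate, and at H19 every point in the gene body and at the 5′ end is 0.

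At Malat1, H3K27ac covered most or all of the gene, whereas H3K4me1 was almost absent from it. Peaks of H3K27ac covered 79.4%, 100.0% and 97.4% of the gene body in replicates 1, 2 and 3, and those of H3K4me1 covered 0%, 11.1% and 0%. The groups did not overlap, with means of 92.2% ± 11.2 and 3.69% ± 6.39 (SD, n = 3 each). The single peak that crossed the Malat1 start was 21485, 20664 and 11423 bp long in the 3 H3K27ac replicates, and its mean fold enrichment over IgG of 2.2, 2.33 and 2.40 stood at the 97.7th, 98.7th and 98.9th percentile of its own list. In the pooled H3K27ac list 1 peak of 32755 bp, from 25695 bp upstream of the Malat1 start to 7059 bp past it, joined Malat1 to the 3′ end of Neat1. The single H3K4me1 peak called at a Malat1 promoter, in replicate 2, lay 6210 to 9395 bp past the 5′ end, within 1 kb of an internal annotated start and mostly beyond the 3′ end of the gene.

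At Neat1 the same contrast held at the 5′ end and weakened along the gene. The first 5 kb of Neat1 were covered 100.0%, 82.6% and 98.3% by H3K27ac in replicates 1, 2 and 3 and 0%, 0% and 18.6% by H3K4me1. Beyond 5 kb, H3K27ac covered 32.5%, 39.0% and 55.5% of the remaining body and H3K4me1 11%, 17.1% and 29.7%, so that the ranges came close but did not meet. The contrast was smaller in the pooled lists. There H3K27ac covered 96.7% of the first 5 kb and 71.5% of the remaining body, and H3K4me1 49.4% and 55.8%. The peak over the Neat1 start was 15131, 10450 and 10506 bp long, with a pileup 20.7, 24.4 and 24.8 times the genome mean, at or above the 99.9th percentile of each H3K27ac list. It also crossed the promoter of Frmd8os, a divergent antisense gene that starts 145 bp upstream of Neat1, and the lists cannot assign it to either gene. H3K4me1 peaks within Neat1 lay downstream of its start, with 1 between 5895 and 8485 bp past the start in each replicate (1400, 1719 and 2574 bp long).

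The 22035 bp between Neat1 and Malat1 carried both marks. H3K27ac covered 83.7%, 92.4% and 79.6% of this gap and H3K4me1 72.3%, 66.0% and 47.2%, so that H3K4me1 was more extensive there than within either gene in every replicate. An H3K4me1 peak of 5341, 5483 and 4514 bp, beginning 10758, 10916 and 10085 bp upstream of Malat1, was the longest of the Malat1 window in each replicate, with a fold enrichment of 2.21, 2.14 and 2.02. Nearest to Malat1, H3K4me1 peaks ended 1525, 1564 and 2549 bp upstream of its start. Of the bases of the Malat1 window that lay in all 3 H3K4me1 replicates (9.48 kb), 92.2% lay in all 3 H3K27ac replicates too, but only 36.6% of the bases in all 3 H3K27ac replicates (23.9 kb) lay in all 3 H3K4me1 replicates. For the Neat1 window the shares were 90.6% of 11.2 kb and 32.6% of 31.3 kb. In the pooled lists 58.2% (Malat1 window) and 66.8% (Neat1 window) of the H3K27ac bases lay in H3K4me1. The reverse shares were 100.0% and 98.3%. In the Neat1 window, the starts of Frmd8os, upstream of Neat1 on the other strand, had a peak within 1 kb in all 3 replicates of both marks, with H3K27ac covering 100.0% of that sequence and H3K4me1 18.8% ± 16.3 (SD, n = 3).

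**Figure D2:**
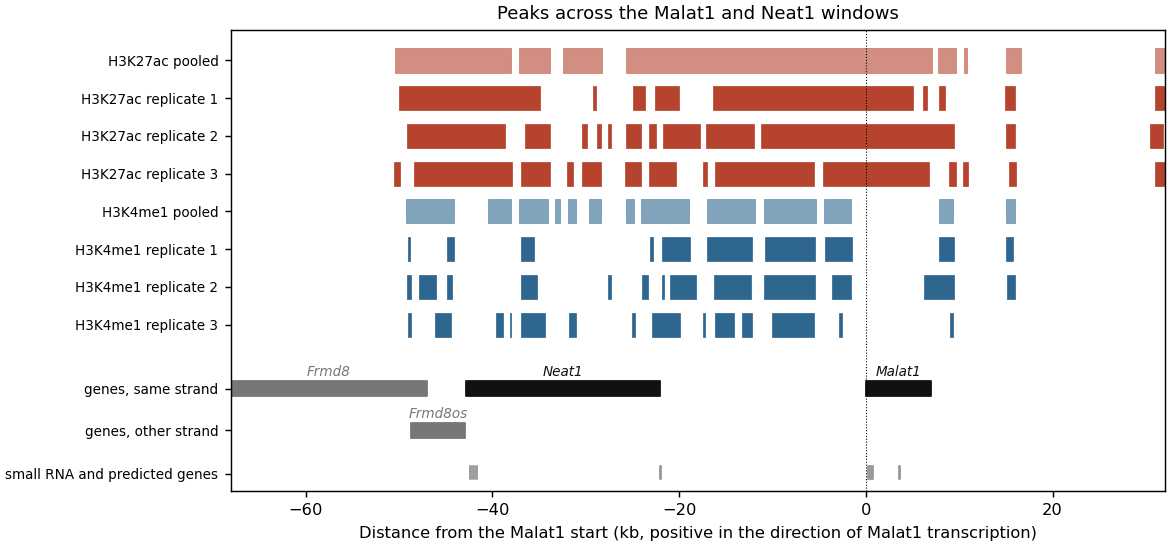
Peaks of each list (rows; pooled lists in the paler shade) along the joined Malat1 and Neat1 windows, with distance from the Malat1 start in kb on the horizontal axis and genes below by strand, except genes that only touch the edge of the range. H3K27ac spans Malat1, the gap and the 5′ end of Neat1, while H3K4me1 peaks leave both starts uncovered, cluster in the gap and recur past the 3′ end of Malat1.

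Window coverage placed this pair near the top of all annotated genes for H3K27ac and less so for H3K4me1. The Malat1 window was covered 53.7% ± 4.74 by H3K27ac (50.4% to 59.1%) and 29.2% ± 7.12 by H3K4me1 (21% to 33.8%), and the Neat1 window 56.1% ± 1.18 (54.8% to 57.1%) and 26.8% ± 1.47 (25.6% to 28.4%), all SD with n = 3. By the mean over replicates, 18 of 10155 lncRNA genes had a higher H3K27ac coverage than Malat1 and 13 a higher one than Neat1, while 294 and 377 had a higher H3K4me1 coverage. These ranks are a description, since the pair was known from the same H3K27ac peaks. Within lists called against the same IgG library the differences in window coverage were 25.9 points (IgG 2) and 30.6 points (IgG 3) at Malat1 and 29 and 31.5 points at Neat1. IgG 1 was the control of H3K27ac replicate 1 alone, so it gives no such value.

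**Figure D3:**
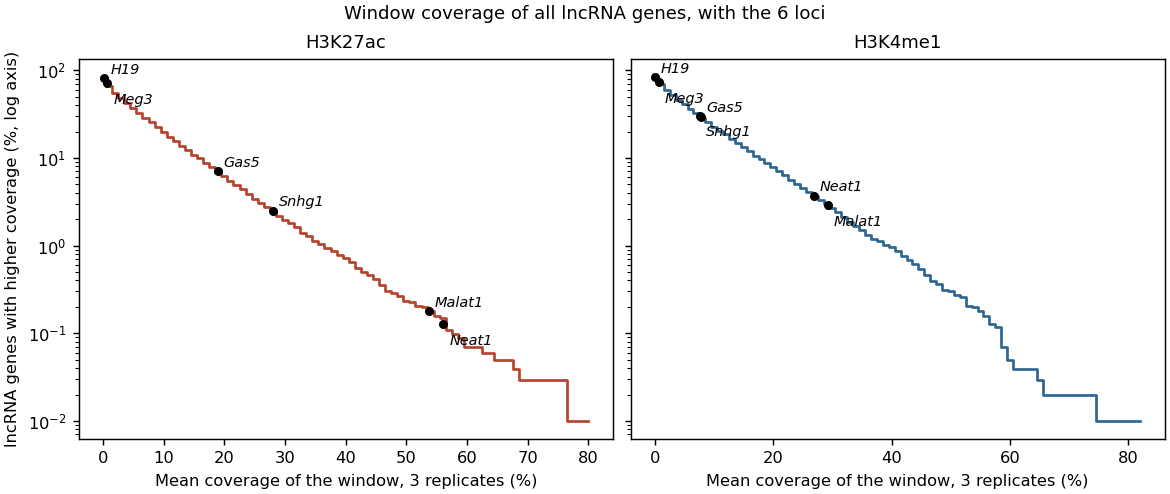
Share of the 10155 lncRNA genes with a higher mean window coverage (vertical axis, log scale) against that coverage in percent (horizontal axis), for H3K27ac (left) and H3K4me1 (right); points mark the 6 genes. Malat1 and Neat1 sit at 0.177% and 0.128% for H3K27ac and at 2.90% and 3.71% for H3K4me1, and Meg3 and H19 sit at the other end, with 70.7% and 81.3% of genes above them for H3K27ac.

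At Gas5, a host of 10 annotated snoRNA genes, 1 H3K27ac peak covered the whole gene in every replicate. It was 7048, 7763 and 6858 bp long, ran from about 1 kb upstream of the start to past the 3′ end, and its fold enrichment of 2.68, 2.29 and 2.45 stood at the 99.8th, 98.4th and 99.2nd percentile of its list. H3K4me1 instead lay on either side of the start. An upstream peak was present in all 3 replicates, ending 175, 160 and 130 bp before the start, and a second peak lay 2288 to 3667 bp past the start in replicate 1 and 2152 to 3639 bp past it in replicate 2, with none in the gene in replicate 3. All 10 snoRNA genes lay wholly inside H3K27ac peaks in each replicate, against 4, 5 and 0 inside H3K4me1 peaks. In the pooled lists the counts were 10 for H3K27ac and 7 for H3K4me1. Zbtb37, a zinc finger gene on the other strand, starts 427 bp past the Gas5 start so that their 5′ ends overlap, and both marks at this start cannot be assigned to one of the genes.

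Over the Gas5 gene body H3K27ac covered 100.0% in each replicate and H3K4me1 33.5%, 36.1% and 0%, with means of 100.0% and 23.2% ± 20.1 (SD, n = 3). Over the window the values were 27.6%, 15.5% and 13.6% for H3K27ac and 10.9%, 7.83% and 4.39% for H3K4me1. The groups did not overlap, although H3K4me1 replicate 1 and H3K27ac replicate 3 lay within a few points of each other. The difference was 11.2 points for the window (exact permutation test, two-sided, p = 0.1, the smallest that 3 against 3 allows, and 0.421 after Benjamini-Hochberg adjustment over all genes), 76.8 points for the body (exact p = 0.1, adjusted 0.825) and 67.5 points for the promoters (exact p = 0.1, adjusted 0.691). For the window it was 6.11 points within IgG 2, 9.22 points within IgG 3 and 6.83 points without H3K27ac replicate 1, and it depended on the flank, at 29.8 points with 10 kb and 7.71 points with 50 kb. In the pooled lists it was 3.12 points for the window, 44.3 for the body and 34 for the promoters. H3K27ac replicate 1, which held the most peaks of any list, had 9 flanking peaks in this window against 2 and 1 in replicates 2 and 3.

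At Snhg1, a host of 8 annotated snoRNA genes, H3K27ac again lay over the start in every replicate, while within 1 kb of the start H3K4me1 was called inside the gene in replicates 1 and 2 and not in replicate 3. The H3K27ac peak was 6104, 4366 and 3445 bp long, with a fold enrichment of 2.48, 2.36 and 2.33 (99.5th, 98.9th and 98.3rd percentile of its list). H3K4me1 peaks of 1075 and 1349 bp began 729 and 491 bp past the start in replicates 1 and 2, at the 16.8th and 42.4th percentile of fold enrichment in their lists, and replicate 3 had none in the gene. Other H3K4me1 peaks of the window flanked the gene in every replicate, 5, 7 and 4 in number. H3K27ac peaks held 8, 6 and 8 of the 8 snoRNA genes and H3K4me1 peaks 4, 5 and 0, while in the pooled lists each mark held all 8. Slc3a2, which encodes the heavy chain of several amino acid transporters, starts 106 bp upstream of Snhg1 on the other strand, so the H3K27ac peak crossed both promoters in each replicate.

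The Snhg1 gene body was covered 100.0%, 69.3% and 88.3% by H3K27ac and 36.2%, 45.4% and 0% by H3K4me1. The window was covered 34.8%, 27.4% and 21.8% by H3K27ac and 9.31%, 8.91% and 4.37% by H3K4me1, again with no overlap between marks. The difference was 20.5 points for the window (exact permutation test, two-sided, p = 0.1, adjusted 0.421), 58.7 points for the body (exact p = 0.1, adjusted 0.825) and 67.1 points for the promoters (exact p = 0.1, adjusted 0.691). For the window it was 18.3 points within IgG 2 and 17.4 points within IgG 3, but for the gene body it was 28.5 and 88.3 points, and 26.3 points in the pooled lists. The window also held the starts of Wdr74, 1700092M07Rik and Stx5a, 12352 to 17938 bp past the Snhg1 start, each with a promoter peak of both marks in all 3 replicates. Most of the H3K27ac coverage of the Snhg1 window came from outside the gene: the gene gave 2.97, 2.06 and 2.62 kb of the 18.4, 14.5 and 11.6 kb covered by H3K27ac.

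**Figure D4:**
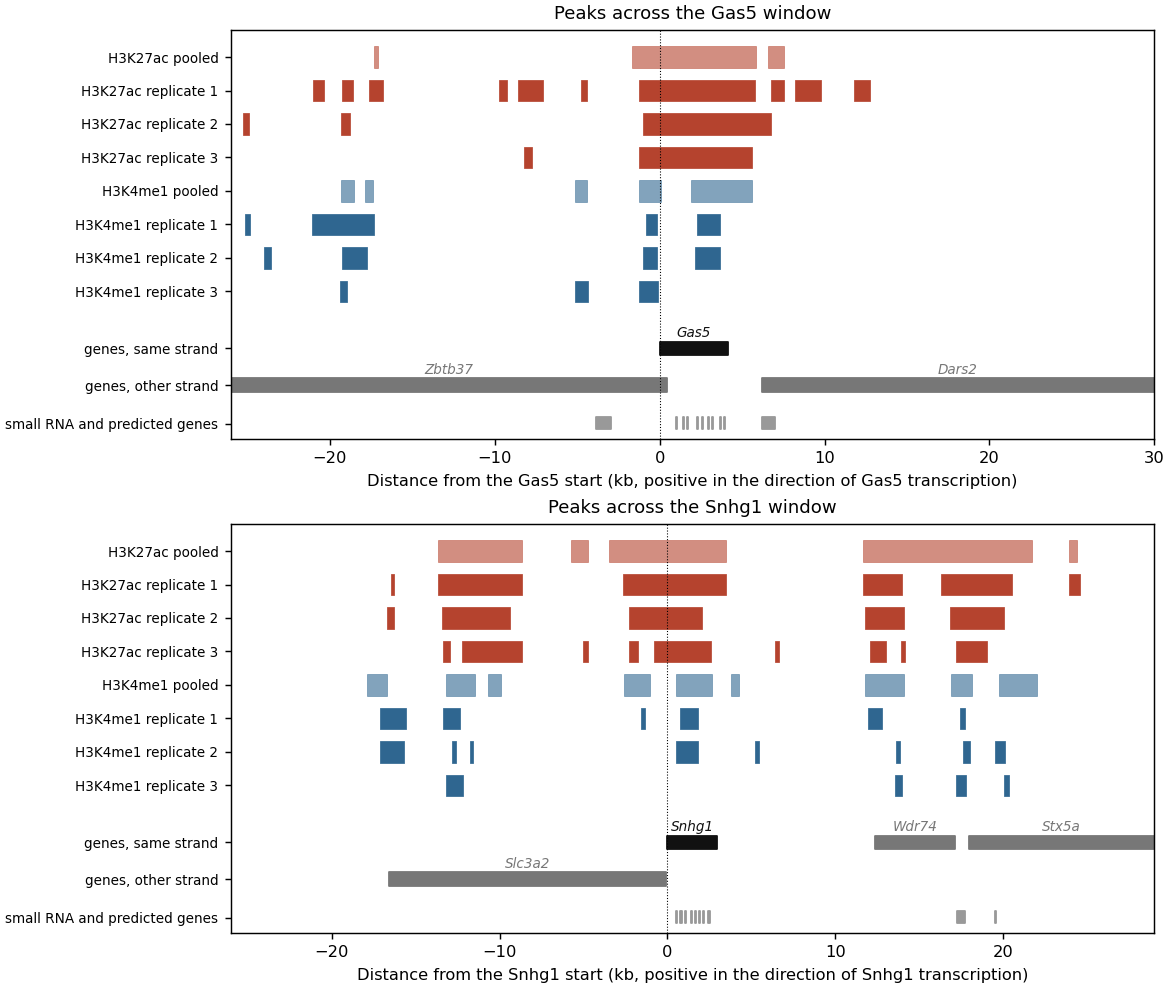
Peaks of each list (rows) across the Gas5 and Snhg1 windows, with distance from each start in kb on the horizontal axis and genes below by strand; grey ticks within each gene are snoRNA genes. One H3K27ac peak crosses each start in all 3 replicates, while H3K4me1 replicate peaks lie beside the start and not on it; the pooled H3K4me1 peak at Gas5 reaches 54 bp past the start.

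The first base of the gene lay in an H3K27ac peak of all 3 replicates and in no H3K4me1 replicate peak at Malat1, Neat1, Gas5 and Snhg1, a pattern found at 6.48% of all genes. Of the 6875 genes whose first base lay in H3K27ac in all 3 replicates, 52.2% had it in no H3K4me1 replicate peak, so this arrangement was common among genes with H3K27ac at the start. Within 1 kb of the 5′ end the 4 genes differed in H3K4me1: Malat1 and Neat1 had 0% in every replicate, Snhg1 13.6%, 25.5% and 0%, and Gas5 32.4%, 41.8% and 43.5%. In the pooled lists, which were called on all libraries of a mark, H3K4me1 reached the first base of Gas5 and of no other member.

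At Meg3 the replicate lists held 6 peaks of 168 to 1346 bp, with fold enrichments of 1.37 to 1.82, and none recurred in all 3 replicates of a mark. H3K27ac covered 0%, 1.67% and 0.451% of the window in replicates 1, 2 and 3 and H3K4me1 1.73%, 0.285% and 0%, so the marks overlapped (0.706% ± 0.862 and 0.673% ± 0.929, SD, n = 3). The difference was 0.0334 points (exact permutation test, two-sided, p = 1.0, adjusted 1.0), and over the promoters it was 4.34 points (exact p = 0.7, adjusted 1.0). The window difference turned to -0.447 points without H3K27ac replicate 2, -0.303 points without H3K4me1 replicate 3 and -0.16 points without H3K4me1 replicate 2, and the promoter difference to -0.122 points without H3K27ac replicate 2. The H3K27ac peak over the start, in replicate 2, was 1346 bp long with a fold enrichment of 1.40, at the 2.69th percentile of that list. In H3K27ac replicate 3 a peak of 196 bp lay 776 to 971 bp past the start, with a fold enrichment of 1.82 at the 85.3rd percentile of its list. In H3K4me1 replicate 1 a peak of 328 bp lay 796 to 1123 bp past the start, with a fold enrichment of 1.37 at the 0.668th percentile. The pooled H3K27ac list held no peak in the whole window. None of the 17 microRNA genes of the window, 2 of them inside Meg3, was touched by a peak of any of the 8 lists. A pooled H3K4me1 peak of 226 bp, also called in replicate 2 (363 bp), lay 55716 to 55941 bp past the start, at the far edge of the window.

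H19 carried no peak on its gene body or promoters in any replicate of either mark. The only replicate peak in its window was an H3K27ac peak of 317 bp in replicate 3, 9915 bp past the start, with a fold enrichment of 1.39 at the 1.31st percentile of its list. Window coverage was 0%, 0% and 0.602% for H3K27ac and 0% in each replicate for H3K4me1 (difference of 0.201 points, exact permutation p = 1.0, adjusted 1.0). The pooled H3K4me1 list alone held 3 peaks upstream of the gene, of 345 bp (618 to 962 bp upstream), 764 bp (2057 to 2820 bp upstream) and 347 bp (15507 to 15853 bp upstream), with fold enrichments of 1.85, 1.86 and 1.57. The upstream region holds the imprinting control element, where the insulator protein CTCF binds the unmethylated maternal copy. The core of its published repeat, CCGCG, any base, GG, any base and GGCAG, was searched on both strands and occurred 3 times in the H19 window, 2166, 2621 and 3891 bp upstream, and 0 times in the Meg3 window. Only this core was searched, so CTCF sites with other letters were not counted in either window. The first 2 matches lay inside the pooled H3K4me1 peak of 764 bp and the third in no peak. No peak of any list covered the 2 mature products of the microRNA in H19, shown with the seed (bases 2 to 8) in capitals and taken from RefSeq (GRCm38.p6, chromosome 7, 142577078 to 142577133, minus strand).
miR-675-5p: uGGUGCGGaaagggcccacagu
miR-675-3p: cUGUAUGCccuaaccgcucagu

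**Figure D5:**
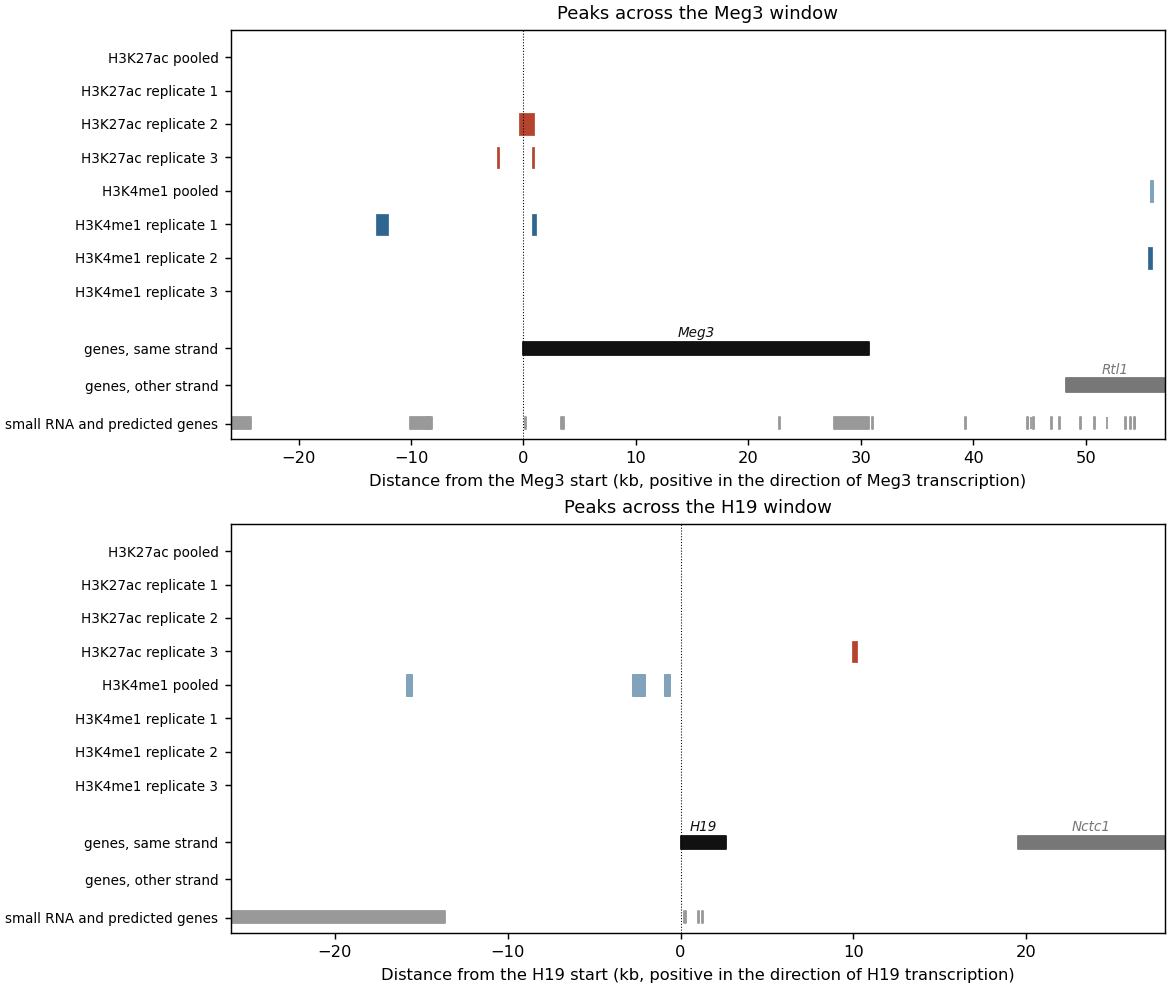
Peaks of each list (rows) across the Meg3 and H19 windows, with distance from each start in kb on the horizontal axis and genes below by strand; grey bars are microRNA and predicted genes. Meg3 has 7 peaks in the 8 lists and H19 has 4, and none is shared by all 3 replicates of a mark.

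Of the other noncoding RNA genes looked at by role, 12 further snoRNA hosts had a place in the annotation, and 11 of them had H3K27ac at a promoter in all 3 replicates, as Gas5 and Snhg1 did, and 4 had H3K4me1 in all 3. The exception was Snhg14, the imprinted host on the Prader-Willi cluster, with H3K27ac in 1 of 3 replicates. Of 8 imprinted noncoding RNA genes, Meg3 and H19 included, 2 had H3K27ac in all 3 replicates (Kcnq1ot1 and Peg13) and 0 had H3K4me1 in all 3. Rian and Mirg, which follow Meg3 in the same cluster, had H3K27ac in 2 and 0 of 3 replicates. Of 4 coding genes of the same clusters, Dlk1, beside Meg3, and Igf2, beside H19, had no promoter peak in any of the 6 replicate lists, against 53.0% of all genes, and the Igf2 window had 0% coverage by both marks. Ins2, an insulin gene next to Igf2, had H3K4me1 at a promoter in 3 of 3 replicates and H3K27ac in 1, and Rtl1, a retrotransposon-derived gene of the Meg3 cluster, had H3K4me1 in 1 and H3K27ac in 0. Of 13 other lncRNA genes, 9 had H3K27ac in all 3 replicates and 6 had H3K4me1. The noncoding RNA counts of peaks in all 3 replicates are to be read against the 18.2% (H3K27ac) and 16.2% (H3K4me1) of all lncRNA genes given above, and the lists were drawn up by name with earlier results known.

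Among 10141 lncRNA genes outside the windows, those with window coverage most like each member over the 6 replicate lists were named by Euclidean distance in percentage points. For Malat1 they were 4930558J22Rik (13.9), Hoxd3os1 (17.9) and Lncppara (20.9), and for Neat1 Gm34030 (13.2), Hoxd3os1 (17.0) and Gm28793 (20.8). For Gas5 they were 1700019L13Rik (4.71), Gm12279 (4.79) and Gm17690 (6.21), and for Snhg1 Gm44710 (6.44), Kdm6bos (7.13) and Ppp1r18os (8.26). For Meg3 the distances to Gm11640, Gm33222 and Gm12576 were 0.614, 0.658 and 0.771, and for H19 those to 1700101I19Rik, Gm48548 and Gm36745 were 0.00729, 0.0351 and 0.0442. Distances were thus far smaller at the nearly empty windows, than at Malat1 and Neat1.

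By the deposited −log10 p values, 92 of the 190 peaks reached 1.3, which is a p of about 0.05. In the pooled lists 10 of 16 (H3K27ac) and 20 of 31 (H3K4me1) did so, against 50.6% and 60.3% of all peaks there. The pooled H3K4me1 count was thus near the share of its whole list. In the H3K27ac replicates 10 of 25, 11 of 21 and 14 of 28 did so, against 11.1%, 14.8% and 14.1% of all peaks in those lists, and in the H3K4me1 replicates 7 of 22, 9 of 26 and 11 of 21 did so, against 15.2%, 16.4% and 19%. In the H3K4me1 replicates these peaks lay in the Malat1, Neat1 and Snhg1 windows, with none at Gas5, and every Meg3 and H19 peak of a replicate list was below 1.3. For each window side and list, the nearest peak outside the window lay 193 to 508492 bp from the edge (median 15593 bp), and 16 entries crossed an edge, so the limit of 25 kb cut through peaks at some loci.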

How the data were processed

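ChIC-Seq libraries of H3K27ac (3), H3K4me1 (3) and IgG (3) were used as 6 replicate and 2 pooled peak lists. Per the labels, the authors trimmed reads with cutadapt, aligned with Bowtie2 to GRCm38.p5 and called peaks with MACS2. Per the file headers, MACS 2.2.7.1 called broad peaks (p of 0.05, joined at 0.1) on paired fragments against IgG, with the larger library scaled to the smaller, so depth of the shallow IgG sets what can be called. H3K27ac replicate 1 was called against IgG 1, H3K27ac replicate 2 and H3K4me1 replicates 1 and 2 against IgG 2, H3K27ac replicate 3 and H3K4me1 replicate 3 against IgG 3, and pooled lists against all 3. The deposited values are pileup signal, the ratio of pileup to control (fold enrichment) and −log10 p-value, each for a whole peak; a q column, which the headers call not calculated, was not used. Pileup was divided by the mean coverage of the scaled library, and values were ranked within their list.

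Gene bodies and transcript starts came from GENCODE mouse release 21. A peak was a promoter peak within 1 kb of a start, otherwise intragenic where it touched the gene and otherwise flanking (at least 1 bp). Coverage was computed for all 55413 genes with numpy 2.4.6 and pandas 2.3.3 under Python 3.11.15. H3K27ac and H3K4me1 replicates were compared by an exact permutation test (two-sided, 20 assignments), adjusted by Benjamini-Hochberg over all genes, tested on simulated data. Named genes were the 6 members, genes whose promoter in a window had peaks in all 3 replicates of a mark, and the 3 most alike lncRNA genes per member; genes of the related and marker lists were to be given as counts, and those named from them were chosen after their values were seen. Not every neighbouring gene that met this rule is reported here. The members and lists were chosen with earlier results of these data known. Alternatives were a p filter, a pileup filter, other flanks and promoter widths, pooled lists, a replicate block, within-IgG values and leaving out each replicate. IgG read positions were not analysed here.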

Additional observations from a re-analysis of the deposited data

How the results depend on the processing

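Of 264 values recomputed under alternative settings, 225 did not reverse and stayed within the spread (root of the summed variances of the 2 marks) or within 1.5 times the count, 31 moved further and 8 reversed. All values below are H3K27ac minus H3K4me1 in percentage points unless said otherwise. The difference moved with the region measured: 37.2 (Malat1), 32.3 (Neat1) and 29.8 (Gas5) over a window with a flank of 10 kb, 22.2 (Neat1) with 50 kb, over promoters of 3 kb either side 68.5 (Malat1) and 55.8 (Neat1), and at the 5′ end alone 100.0 (Neat1) and 22.3 (Meg3). The pooled lists gave 22.1 (window), 23.3 (body) and 63.5 (promoters) for Neat1, 3.12, 44.3 and 34 for Gas5, 26.3 (body) and 45.6 (promoters) for Snhg1 and -9.57 (promoters) for H19. Peaks with a −log10 p of at least 1.3 gave 24.6 (body) and 52.6 (promoters) for Neat1 and 100.0 for both at Gas5. Lists of IgG 3 gave 31.5 (Neat1 window), 0.602 (H19 window), 100.0 (Gas5 body), 83.8 (Gas5 promoters) and 88.3 (Snhg1 body), and those of IgG 2 gave 28.5 (Snhg1 body) and 12.7 (Meg3 promoters); the cause was not tested. The Meg3 window reversed to -0.387 under a minimum pileup of 5 genome means and to -0.0124 in the pooled lists, and the H19 window to -2.77 in the pooled lists, where its 3 peaks are in the H3K4me1 list alone.

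The members with H3K4me1 promoter peaks in all 3 replicates numbered 0 with a −log10 p of at least 1.3, 0 where 50% of the promoter had to be covered, 3 with promoters of 3 kb (Malat1, Neat1 and Gas5) and 2 without H3K4me1 replicate 3 (Gas5 and Snhg1), against 1. Leaving out each replicate, that count ran from 1 to 2 and the H3K27ac count from 4 to 5, the fifth being Meg3. The window differences then ran from 20.4 to 26.8 (Malat1), 28.7 to 30.1 (Neat1), 6.83 to 13.8 (Gas5), 17.1 to 23.5 (Snhg1), -0.447 to 0.564 (Meg3) and 0 to 0.301 (H19). Over the gene body they ran from 84.7 to 95 (Malat1), 33.0 to 44.0 (Neat1), 65.2 to 83.2 (Gas5), 45.1 to 67.8 (Snhg1) and -0.0369 to 1.50 (Meg3), and over the promoters from 83.2 to 96.2 (Malat1), 73.2 to 83.6 (Neat1), 59.4 to 72.9 (Gas5), 57.1 to 73.8 (Snhg1) and -0.122 to 7.1 (Meg3).

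The replicate numbers were not taken to pair the libraries: deviations from the mark means over all gene windows correlated at -0.0723, 0.331 and 0.462 for replicates 1, 2 and 3 of the 2 marks, and H3K27ac replicate 1 did not correlate best with its own number. Lists that shared an IgG library correlated at 0.325 to 0.462 and the others at -0.48 to 0.0659. Deviations from a mean of 3 lists cancel, so high values for some pairs force low ones for others. Lists with the number 2 or 3 also shared an IgG library across marks, and those with the number 1 did not. With the replicate block, the window difference was 11.2 points at Gas5 and 20.5 points at Snhg1, positive in 3 of 3 pairs at each (exact sign-flip p = 0.25, the smallest that 3 pairs allow), 0.0334 at Meg3 and 0.201 at H19 (exact p = 1.0).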
